A study of Mus musculus with 64 samples.

Results

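The pancreatic lipases are the enzymes that acinar cells secrete into the duodenum to split dietary fat. They were taken as 6 genes, Cel, Pnlip, Pnliprp1, Pnliprp2, Clps and Pla2g1b, and each was read from the probe sets of an Affymetrix mouse genome array annotated to that gene alone. By this rule 5 of the 6 genes were measured, with 10 of the 45037 probe sets tested and out of 18193 genes with a probe set of their own. Pnlip was not analysed here. The probe set with the highest mean over the pancreas arrays stood for each gene, and the others were used as an alternative.

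Expression was measured in liver, pancreas, muscle and adipose tissue of 16 male F2 mice from the cross of TALLYHO/JngJ, a strain with obesity, hyperlipidemia and type 2 diabetes, with C57BL/6J. The mice came from the tails of the F2 distribution of plasma triglyceride, 8 high and 8 low, without overtly diabetic animals, so each mouse carried its own mixture of both parental genomes. All were fed chow with 4% fat and were killed at 24 weeks of age. Pancreas, adipose tissue (inguinal, epididymal, retroperitoneal, perirenal and subscapular pads combined) and muscle (soleus and gastrocnemius combined) were homogenized whole, and the 64 arrays hold 1 array for each mouse and tissue.

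Triglyceride in the gut is split by pancreatic lipase, which bile salts would displace from the fat droplet were it not anchored there by colipase, the product of Clps. Cel encodes bile salt-stimulated lipase, which also cleaves cholesteryl and retinyl esters. Pnliprp1 and Pnliprp2 encode relatives of pancreatic lipase; the first has little known activity against triglyceride, and the second also accepts phospholipids and galactolipids. Pla2g1b encodes the secreted phospholipase that releases fatty acids from phosphatidylcholine of bile and diet. In the RefSeq gene table of GRCm38.p6, Pnliprp1 and Pnliprp2 are direct neighbors on chromosome 19, which also carries Pnlip, while Cel lies on chromosome 2, Clps on chromosome 17 and Pla2g1b on chromosome 5.

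The bases upstream of the start of transcription are shown for the 3 members with the largest differences between the groups in pancreas. Each run is 120 bases, 5′ to 3′ on the strand of the gene, from RefSeq GRCm38.p6, and ends 1 base before the start. Cel is on the minus strand at chr2:28563404-28563523, and Pnliprp1 and Pnliprp2 are on the plus strand at chr19:58728767-58728886 and chr19:58759603-58759722. Capitals mark matches to 1 of 4 motifs.
Cel: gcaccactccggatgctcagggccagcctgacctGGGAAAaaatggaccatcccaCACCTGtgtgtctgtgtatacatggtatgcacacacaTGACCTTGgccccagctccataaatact
Pnliprp1: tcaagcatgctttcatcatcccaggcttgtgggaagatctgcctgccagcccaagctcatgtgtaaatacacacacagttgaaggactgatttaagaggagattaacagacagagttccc
Pnliprp2: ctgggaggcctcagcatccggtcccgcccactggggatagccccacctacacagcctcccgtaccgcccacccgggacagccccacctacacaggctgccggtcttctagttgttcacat

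The motifs were searched on both strands in the 250 bases upstream, and they were chosen after these sequences had been seen. The E-box CACCTG and the box TTTCCC are the elements of the paired sites known for PTF1, the transcription factor complex of acinar cells, and CAAGGTCA is a site of the NR5A2 kind. The E-box was present upstream of Cel and Pnliprp2 and in 17.2% of the 32851 promoters of the table, and TTTCCC upstream of Cel and in 21.9%. Both together were present upstream of Cel and in 3.61% of promoters, and CAAGGTCA upstream of Cel and in 1.33%. TATAAA was present upstream of Pnlip and in 12.4%, and none of the 4 motifs was present in these windows of Pnliprp1 and Pla2g1b. The promoter of Clps was not analysed here, so the search covered 5 of the 6 genes. In the Cel sequence above, the E-box begins at position -65 from the start, GGGAAA, the reverse complement of TTTCCC, at -86, and TGACCTTG, the reverse complement of CAAGGTCA, at -28. A match is given as a description of the letters.

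All 5 members measured were among the brightest probe sets of the pancreas. The deposited values are on a log2 scale after gcRMA, on which 1 unit is a doubling, and a value depends on the probes as well as on the RNA, so the members are not ranked by abundance. Over the 16 arrays the log2 value of Clps averaged 16.75 ± 0.056 (SD, n = 16), and on every array it stood between 4 and 6 in rank among the 45037 probe sets. The value of Pnliprp1 averaged 16.06 ± 0.074, that of Pnliprp2 16.02 ± 0.10 and that of Cel 15.85 ± 0.098. Pla2g1b had the lowest mean and the widest spread of the members, at 14.93 ± 0.15, and ranked between 44 and 59.

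The highest value of a pancreas array was between 17.22 and 17.51, and on all 16 arrays it belonged to the same probe set, which is annotated to several amylase genes. Clps lay on average 0.70 log2 below it, a factor of 1.62, Pnliprp1 1.38, Pnliprp2 1.43, Cel 1.59 and Pla2g1b 2.52. Set against the mean of the 10 highest probe sets of the array, Clps was only 0.060 below. The files record no saturation of the scanner, and the distance is from the highest value measured.

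Probe sets at this level varied little between mice. The median SD over the 16 arrays was 0.32 log2 for the 351 probe sets with means between 10 and 12, 0.19 for the 48 between 14 and 15, 0.093 for the 19 between 15 and 16, and 0.056 for the 26 of 16 or more. The SDs of Clps (0.056), Cel (0.098) and Pla2g1b (0.15) were near or below the median of their level, while those of Pnliprp1 (0.074) and Pnliprp2 (0.10) were above it. The levels were divided in this way after the data had been seen, and whether narrow spread at the top reflects the tissue or the range of the array was not tested.

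**Figure D1:**
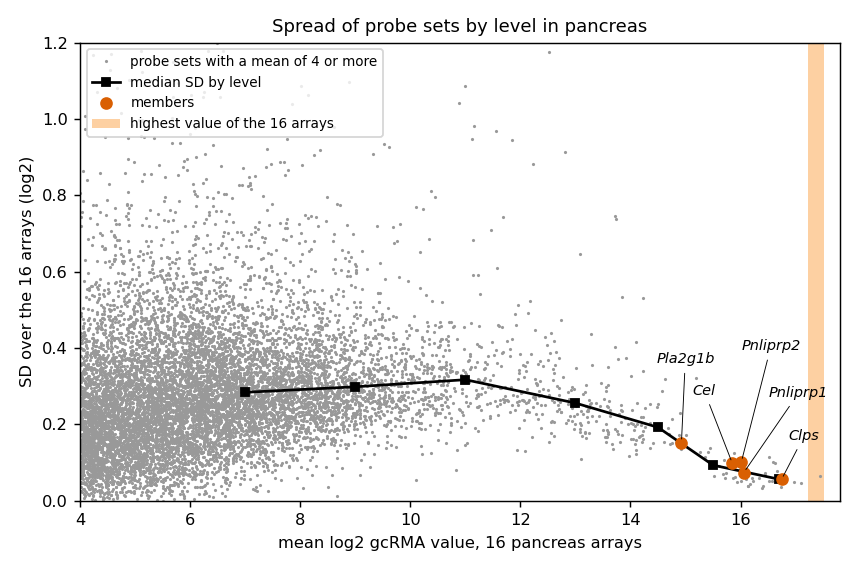
SD over the 16 pancreas arrays (log2) against the mean log2 gcRMA value for the 10280 probe sets with a mean of 4 or more. Black squares give the median SD by level, orange points the 5 members and the band the highest values of the arrays; 48 probe sets with an SD above the axis are not drawn. The members lie at the right, where the median SD falls to 0.056.

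In the pancreas, 0 of the 5 members differed between high and low triglyceride mice at an adjusted p of 0.05 (limma, Benjamini-Hochberg over 45037 probe sets), against 0% of all probe sets. At an unadjusted p under 0.05, 2 of the 5 members passed, Cel and Pnliprp1, against 2.23% of all probe sets. Among the 93 with a mean of 14 or more, which include the members, it was 7.53%. Cel and Pnliprp1 were both higher in high triglyceride mice, as were 1.46% of all probe sets at this p. The groups overlapped for all 5 members, and were apart for 0.00444% of probe sets. The adjusted p was 0.795 for each of the 5. In whole tissue, fewer acinar cells and less RNA per acinar cell cannot be told apart.

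Cel showed the largest difference of the members. Its log2 value ran from 15.85 through a median of 15.91 to 15.97 in the 8 high triglyceride mice and from 15.56 through 15.83 to 15.89 in the 8 low triglyceride mice. The ranges overlapped, with 5 of the 8 high mice above every low mouse and all 8 above the median of the low group. The mean was 15.91 ± 0.040 (SD, n = 8) in high and 15.79 ± 0.11 (SD, n = 8) in low mice, a difference of 0.12 log2 (95% confidence interval 0.030 to 0.20), or 1.08-fold. The exact permutation test over the 12870 splits of the mice gave p = 0.00233, two-sided and not adjusted for the number of genes. Low replicate 4 was the lowest of all mice at 15.56. Without it the difference was 0.082 with an exact p of 0.00389.

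Pnliprp1 was between 16.02 and 16.18, with a median of 16.09, in high mice and between 15.87 and 16.09, with a median of 16.05, in low mice. The difference was 0.078 log2 (0.011 to 0.15), a 1.06-fold change, with an exact permutation p of 0.0224. Again 5 of the 8 high mice were above every low mouse. The exact p was 0.0503 without high replicate 3.

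For Pnliprp2 the high mice were close together, from 16.02 through 16.04 to 16.13, and the low mice spread from 15.78 through 15.96 to 16.20. Of the low mice 6 were below all high mice and the highest value of all was also a low mouse, replicate 6. The difference of 0.089 log2 (-0.011 to 0.19) had an exact permutation p of 0.0796, and an exact p of 0.00357 without low replicate 6. The other probe set of Pnliprp2 gave the opposite sign, -0.042 (exact p = 0.338), and the values of the pair had a Pearson's r of 0.28 over the 16 mice (permutation p = 0.298) and a Spearman's rho of 0.37 (permutation p = 0.153).

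Clps, the cofactor, ran from 16.64 through 16.79 to 16.83 in high and from 16.67 through 16.71 to 16.79 in low mice. Its difference was 0.037 log2 (-0.020 to 0.094), with an exact permutation p of 0.193. Its other probe set gave 0.046 (exact p = 0.107), and the pair of probe sets varied together over the mice, with r = 0.69 (permutation p = 0.00294, adjusted over 3 genes 0.00441) and rho = 0.77 (permutation p = 0.00063, adjusted 0.00189).

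Pla2g1b, the phospholipase, was the only member with a lower mean in high mice. It ran from 14.70 through 14.93 to 15.10 in high and from 14.71 through 14.92 to 15.27 in low mice, so the ranges overlapped almost wholly, with the highest value in a low mouse. The difference was -0.043 log2 (-0.21 to 0.12), with an exact permutation p of 0.595. A second bright probe set gave -0.17 (exact p = 0.194) and varied with the first (r = 0.76, permutation p = 0.00058, adjusted 0.00174; rho = 0.67, permutation p = 0.00568, adjusted 0.00852). The remaining pair of probe sets averaged 2.41 and 2.53, near the lowest value of the tissue.

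**Figure D2:**
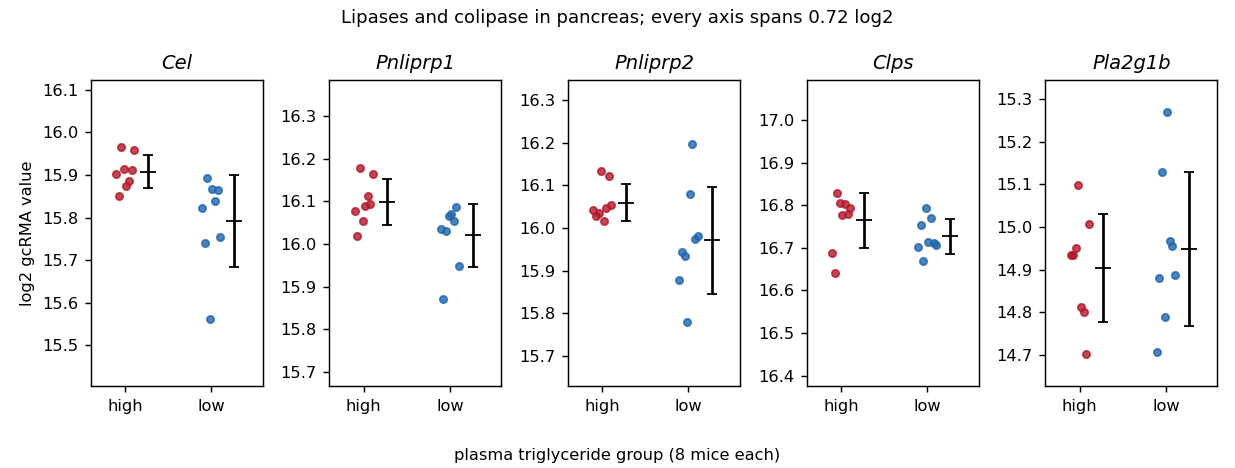
Log2 gcRMA values of the 5 members in the pancreas of 8 high (red) and 8 low (blue) triglyceride mice. Points are mice, bars are the mean ± SD, and every vertical axis spans 0.72 log2, with different starting values. Cel is above the low median in all 8 high mice, and the groups overlap for every member.

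Most other bright probe sets had differences of the same sign as Cel and Pnliprp1. Of the 93 probe sets with a mean of 14 or more, 72 were higher in high triglyceride mice, with a median difference of 0.043 log2. All 7 with an unadjusted limma p under 0.05 were higher, and besides Cel and Pnliprp1 these were probe sets of the pancreatic elastases Cela1 and Cela2a, of the trypsinogen Prss2 and 2 that name no single gene. A difference of the size of Cel or more was reached by 11 of the 93, Cel among them. The highest value of the array, that of the amylase probe set, was itself 17.47 ± 0.019 in high and 17.41 ± 0.079 in low mice (SD, n = 8 each). Values relative to it also lose any difference that a member shares with amylase, so they cannot separate such a difference from the scale of the array. Taken relative to that value on each array, the difference was 0.050 for Cel (exact permutation p = 0.0998), 0.013 for Pnliprp1 (exact p = 0.799), 0.023 for Pnliprp2 (exact p = 0.57), -0.029 for Clps (exact p = 0.599) and -0.11 for Pla2g1b (exact p = 0.148). After quantile normalization within the tissue the differences were 0.055 for Cel, 0.038 for Pnliprp1, 0.052 for Pnliprp2, 0.0082 for Clps and -0.056 for Pla2g1b. The part of the array scale in the higher Cel and Pnliprp1 values was not tested beyond these values.

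Among gene groups of the pancreas, 0 genes passed at an adjusted p of 0.05, so the groups are given by their medians. The median of all probe sets was 0.000093 log2. The array medians, 2.36 to 2.37, lay near the lowest value of the tissue, 2.35, so this figure describes probe sets near the floor. The 93 probe sets with a mean of 14 or more had a median difference of 0.043. Of the 13 acinar enzymes other than lipases that were measured, 9 were higher in high triglyceride mice, and the median difference was 0.034. The 2 that were higher at an unadjusted limma p under 0.05 were Cela1, with a difference of 0.072, and Cela2a, with 0.051. Cpb1, a carboxypeptidase, differed by 0.092 ± 0.053 (SE) and did not pass. The largest difference of this group, -0.88 for the trypsinogen Prss3, had an SE of 2.26. In each group Prss3 was dim in 3 mice and bright in 5, with dim values from 3.89 to 8.04 and bright values from 12.50 to 14.76. The 22 genes of zymogen granules and secretion had a median of 0.041. Of these, Stx3, at 0.36 ± 0.15 (SE), was higher at an unadjusted limma p under 0.05. The 9 transcription factors of acinar cells had a median of -0.012, and 4 of the 9 were higher in high mice. Foxa3 differed by 0.39 ± 0.34 (SE), Bhlha15, which drives the secretory program, by -0.19 ± 0.14 and Nr5a2 by 0.13 ± 0.20. Over 24 other lipases and secreted phospholipases the median was 0.000093, and only 6 of the 24 had a mean over 4. Mgll, the monoacylglycerol lipase of cells, differed by 0.26 ± 0.12 (SE).

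Markers of other cells in the pancreas were read in the same way. The 12 islet genes, 9 of them with a mean over 4, had a median difference of 0.25 log2. Of the 12, 10 were higher in high triglyceride mice, among them Ppy and Slc2a2, with means near the floor of 2.36 and 2.46. The islet genes that passed an unadjusted limma p under 0.05 were G6pc2, a beta cell phosphatase, at 1.19 ± 0.54 (SE), and Sst at 0.45 ± 0.16. Iapp, islet amyloid polypeptide, differed by 0.66 ± 0.34 and did not pass. Of the 7 regenerating proteins, secreted by acinar cells under stress, 5 were higher in high triglyceride mice. Reg3b differed by 1.22 ± 0.51, Reg3g by 0.93 ± 0.69 and Reg3d by -0.83 ± 0.43. The 8 duct genes, 4 of them with a mean over 4, had a median of 0.021. The 6 adipocyte genes, 1 of them with a mean over 4, had one of -0.033. The 8 fibroblast and stellate genes, 5 of them with a mean over 4, had a median of 0.054. At an unadjusted limma p under 0.05, Acta2, at -0.32 ± 0.11 (SE), was lower in high mice. Pdgfra, at 0.17 ± 0.073 and with a mean of 3.64, was higher. The 11 genes of stress and handling, 4 of them with a mean over 4, had a median of 0.00079. Of these, Ier2, at 0.33 ± 0.11, passed the same p. The part of any of these in the values of the lipases was not tested.

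Across the 16 pancreas arrays the members varied together only in part. Of the 10 pairs, 0 passed at an adjusted permutation p of 0.05 for Pearson's r. The highest was that of Cel and Pnliprp2, with r = 0.68 (permutation p = 0.00582, adjusted 0.0582) and rho = 0.55 (permutation p = 0.0284, adjusted 0.0947), and without low replicates 2 and 4, the mice farthest from the median of Cel, r was 0.29, so the relation rests on them. Cel and Pnliprp1 had r = 0.55 (permutation p = 0.0393, adjusted 0.197) and rho = 0.70 (permutation p = 0.00361, adjusted 0.0361), and r was 0.87 without the same mice. The neighbors Pnliprp1 and Pnliprp2 had r = 0.27 (permutation p = 0.299, adjusted 0.498) and rho = 0.39 (permutation p = 0.144, adjusted 0.227). After the group means were subtracted, Cel and Pnliprp1 had r = 0.33 (permutation p = 0.208) and rho = 0.63 (permutation p = 0.0106, adjusted 0.106). Their r was 0.87 without low replicates 3 and 4. Cel and Pnliprp2 then had r = 0.57 (permutation p = 0.036) and rho = 0.37 (permutation p = 0.158). After quantile normalization r was 0.16 (permutation p = 0.587) for Cel and Pnliprp1 and 0.72 (permutation p = 0.016) for Cel and Pnliprp2. Their rho was then 0.33 (permutation p = 0.206) and 0.31 (permutation p = 0.243).

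Genes were also compared with the mean of the 5 standardized members over the 16 pancreas arrays, by Pearson's r among 3428 genes with a mean of 6 or more. The 10 most alike were Aars (r = 0.85), Ifi30 (0.83), Cdk5rap3 (0.83), Chmp2a (0.82), Srp68 (0.82), Epb41l4b (0.81), Mknk1 (0.81), Rragc (0.80), Dcaf11 (0.80) and Gstm2 (0.80). Aars encodes alanyl-tRNA synthetase and Srp68 a subunit of the signal recognition particle, which brings secretory proteins to the endoplasmic reticulum. These are the extremes of many comparisons over the same arrays and are given as a description.

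Outside the pancreas the members lay at or near the lowest value of the tissue in most mice. The lowest log2 value was 2.24 in adipose tissue, 2.29 in muscle and 2.30 in liver, and a trace was counted where a value was more than 1 log2 above it. By this limit there were 3 values of members in adipose tissue, 7 in muscle and 0 in liver, each out of 5 members in 16 arrays. The lowest values differ between tissues, and whether the tissues were normalized together is not given in the sources used here, so values are set side by side with no test between tissues. In liver the highest value of a member was 2.34, that of Cel in low replicate 5, and the arrays included low replicate 7, which stood apart with a median correlation of 0.58 with the other liver arrays and with Fabp4, an adipocyte gene, as its brightest probe set. A second probe set of Pla2g1b was between 3.03 and 3.44 on all liver arrays.

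**Figure D3:**
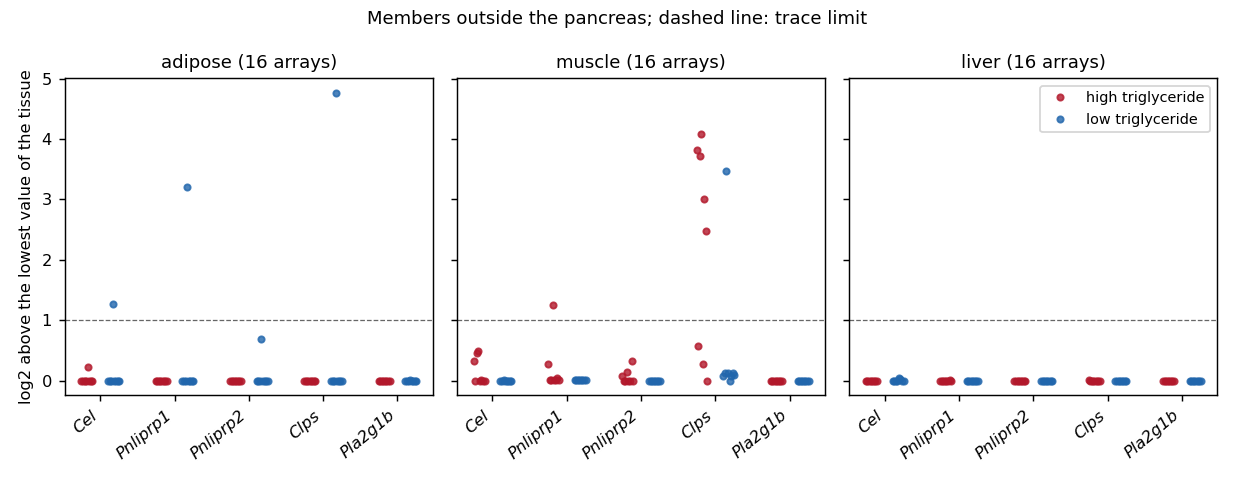
Log2 values of the 5 members above the lowest value of the tissue in adipose tissue, muscle and liver, with 1 point for each of 8 high (red) and 8 low (blue) triglyceride mice; the dashed line is the limit of 1 log2. The points over the line are those of 1 adipose array and, in muscle, 6 values of Clps and 1 of Pnliprp1.

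In adipose tissue all the traces came from 1 array, low replicate 4. There the log2 value of Clps was 7.00, that of Pnliprp1 5.44, that of Cel 3.50, that of Pnliprp2 2.92 and that of Pla2g1b 2.25. The highest value of these 5 in any other adipose array was 2.47, for Cel in high replicate 5. The same array held other acinar products, with Cela3b at 8.94, Cela2a at 8.11, Prss2 at 7.92, Cpb1 at 7.78, Ctrl at 7.14 and Ctrb1 at 6.71. It had 10 of the 13 acinar enzymes over the limit, against 1 to 3 on the other 15 adipose arrays. Cela1 was over the limit on all 16 adipose arrays and Klk1 on 8, so these did not set the array apart. The log2 of the summed level of the 13 was 11.06 there, 8.44 to 10.12 in high and 8.02 to 12.50 in low mice. The highest sum was that of low replicate 7, with 3 enzymes over the limit, where Klk1 was at 11.85 and Cela1 at 10.09. Dnase1, with a pancreas mean of only 2.46, near the floor, is included in these counts and sums. The part of acinar RNA in the traces was not tested. In the pancreas the mouse of low replicate 4 had the lowest Cel of all and an array maximum of 17.22, the lowest of the 16. The difference between the groups in adipose tissue was -0.60 log2 for Clps (exact permutation p = 1) and 0 without low replicate 4. At an adjusted p of 0.05, 0 of the 5 members were called in adipose tissue and in liver, against 0% of all probe sets in each, and at an unadjusted limma p under 0.05 also 0, against 4.62% in adipose tissue and 3.83% in liver.

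In muscle, Clps was over the limit in 5 of 8 high and 1 of 8 low triglyceride mice. The log2 values were 6.10, 2.86, 6.01, 6.37, 2.56, 5.29, 4.76 and 2.29 in high replicates 1 to 8. In the low mice replicate 3 was at 5.75 and the other 7 were between 2.29 and 2.41. The values thus fell near the floor or well above it in both groups, and the ranges overlapped. The difference was 1.73 log2 (95% confidence interval 0.18 to 3.29), with an exact permutation p of 0.0357 and an adjusted p of 0.846 (limma), and 0 of 5 members were called in muscle, against 0% of all probe sets. At an unadjusted limma p under 0.05, 1 of the 5, Clps, passed, against 4.10% of all probe sets, or 2.32% with higher values in high mice. The groups were apart for none of the members that varied and for 0.0311% of probe sets. Without any 1 of 10 of the 16 mice the exact p was above 0.05, with a highest value of 0.0618, and without low replicate 3 it was 0.00824. The other probe set of Clps reached only 3.05, in high replicate 4, and gave a difference of 0.12 (exact p = 0.2).

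The remaining members were fainter in muscle. Pnliprp1 was at 3.53 in high replicate 4 and 2.56 in high replicate 1 and at or below 2.32 in the other 14 mice, a difference of 0.19 log2 (exact permutation p = 0.0443). Without high replicate 4 the difference was 0.045 (exact p = 0.0443), and without any 1 of the 8 low mice the exact p was 0.219 to 0.232. Cel was between 2.61 and 2.78 in high replicates 1, 3 and 4 and at or below 2.30 elsewhere (difference 0.16, exact p = 0.0965). Pnliprp2 reached 2.61 in high replicate 7 (exact p = 0.2 for a difference of 0.068, which was 0.031 log2 without that mouse), and Pla2g1b was at the lowest value in all 16 mice.

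Other acinar enzymes were read on the same muscle arrays. Of the 13 measured, 3 to 9 were over the limit in the high and 2 to 4 in the low mice, and the log2 of their summed level was 7.05 to 9.57 in high and 6.55 to 8.09 in low mice. Dnase1, near the floor in pancreas, is included in these counts and sums. In muscle it averaged 5.09 in high and 3.94 in low mice. Cela3b was over the limit in 7 high and 2 low mice, Ctrl in 6 and 1, Cpb1 in 6 and 0, Ctrb1 in 5 and 0, Cela2a in 4 and 0 and Rnase1 in 3 and 0. Cpb1 differed by 1.84 log2 and Cela3b by 2.35, with an adjusted p of 0.846 each (limma). The 6 arrays with the highest Clps, high replicates 1, 3, 4, 6 and 7 and low replicate 3, also had the 6 highest summed levels, from 7.80 to 9.57, and the next was 7.15. Ctrc, Cpa1, Klk1 and the granule markers Gp2, Sycn and Spink1 were over the limit in 0 muscle arrays, whereas Prss2, Zg16 and Cuzd1 were over it in all 16. The 13 acinar enzymes had a median difference of 0.56 log2, with 11 higher in high mice. At an unadjusted limma p under 0.05, 9 of the 13 were higher and 0 lower, against 2.32% of all probe sets higher. Other lists also had medians above 0 on these arrays. They were 1.10 log2 for the 8 hepatocyte genes, 0.51 for the 6 adipocyte genes and 0.42 for the 11 genes of stress and handling. At the same unadjusted p, 2 of the 8 hepatocyte genes, 2 of the 6 adipocyte genes and 4 of the 11 stress genes were higher. Of the stress genes, which respond early to injury and handling of tissue, 10 had higher means in high mice. The 4 were Fos at 1.68 ± 0.71 (SE), Egr1 at 1.53 ± 0.46, Junb at 0.70 ± 0.32 and Ier2 at 0.42 ± 0.13. At an adjusted p of 0.05, 0 genes of the hepatocyte, adipocyte and stress lists and 0 of the acinar enzymes passed. The part of acinar RNA, or of stress and handling, in the difference of Clps was not tested.

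**Figure D4:**
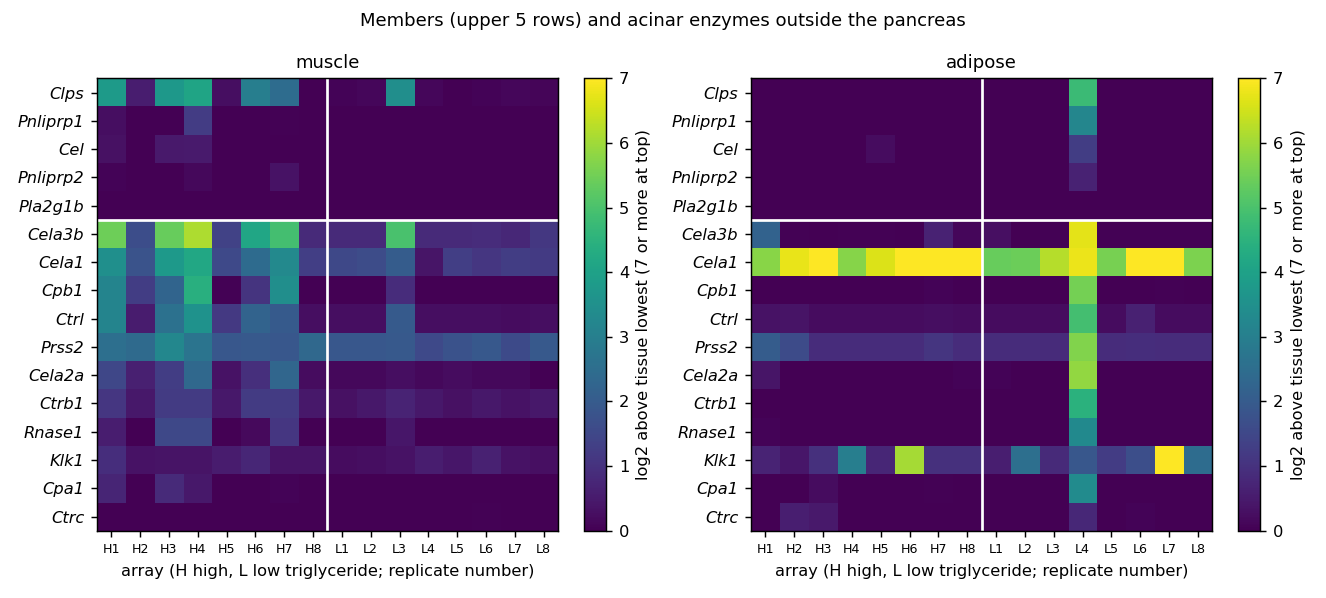
Log2 value above the lowest value of the tissue, by color from 0 to 7, for the 5 members (upper rows) and the acinar enzymes with a pancreas mean of 14 or more (lower rows) on the muscle and adipose arrays, with high (H) and low (L) triglyceride mice in columns by replicate number. In muscle the arrays with Clps over the limit also show Cela3b and Ctrl, and in adipose tissue the column of low replicate 4 stands out.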

How the data were processed

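The authors hybridized total RNA of 16 mice to 64 arrays and deposited log2 values made with gcRMA (version not given in the sources used here). The arrays give no read depth, and their number limits the precision. Tissues have different lowest values, so each was analysed alone. Of 45101 probe sets 64 controls were left out; 34945 of the rest name 1 gene by the platform annotation, 932 several and 9160 none here. High and low triglyceride mice, grouped by the labels, were compared with limma 3.58.1 in R 4.3.3 over 45037 probe sets (Benjamini-Hochberg, 0.05), and each member also by the exact permutation test where its range was 0.05 log2 or more. Correlations used 100000 permutations with scipy 1.17.1 and numpy 2.4.6. Genes are named if they are members, among the 4 largest differences of a list in pancreas, or among the 10 most alike. Genes in the accounts of bright probe sets and of muscle and adipose traces were named after their values were seen. In the pancreas lists Sst and Cela2a were named for their unadjusted p. The members and lists were chosen with earlier results of these data known. Planned for 6 members and 15 pairs, the analysis covered 5 and 10, since no probe set was annotated to Pnlip alone here. The script was tested on simulated data. Alternatives were quantile normalization, a filter, a plain F test, an intensity trend, array weights, the replicate block, other probe sets and leaving out each array; exact tests without each array, and values relative to the array's highest, were added after the data were seen. A deposited table of traits and genotypes has no mouse number as held here and was not used.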

Additional observations from a re-analysis of the deposited data

Results flagged for a closer look

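Within the groups of 8, the highest or lowest array was tested by Dixon's criterion in 26 groups with any spread, and 14 stood apart; chance flags about 1 in 20 groups, and near the lowest value of a tissue a very small difference can pass. In pancreas this was low replicate 4, with the lowest Cel, at 15.56 on the log2 scale.

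In adipose tissue low replicate 4 was far above the other low mice for Clps (7.00), Pnliprp1 (5.44), Cel (3.50), Pnliprp2 (2.92) and, by 0.014 log2, Pla2g1b (2.25), and high replicate 5 was above the other high mice for Cel (2.47). In muscle low replicate 3 was apart for Clps (5.75), high replicate 4 for Pnliprp1 (3.53) and high replicate 7 for Pnliprp2 (2.61). The others differed by under 0.02 log2, namely Cel in muscle of low replicate 3 (2.30), Pnliprp1 in muscle of low replicate 6 (2.29), Pnliprp1 in liver of high replicate 7 (2.31) and Clps in liver of high replicate 1 (2.32).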

How the results depend on the processing

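No member passed in any tissue under any of the 22 settings run in each. In pancreas the number of probe sets called was 0 to 1 over the arrays left out, with the 1 found without high replicate 2; in adipose tissue it was 0 to 1 (without high replicate 1) and 4 with the replicate number as a block; and in muscle 0 to 2, with 2 found without high replicate 3 and 1 without low replicate 3. High and low mice share a number but not an animal: the correlation of deviations of same-numbered pancreas arrays was -0.29 to 0.19. Each number occurs once in each group, so the replicate block cannot change the differences of the members, only their error. With it the adjusted p of Cel was 0.827.

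Directions turned for Pnliprp2 by its other probe set (-0.042 in pancreas, 0.025 in adipose tissue), for Pla2g1b in pancreas without low replicate 5 (0.0027, exact p = 0.967) and by a probe set near the floor (0.0027), for Clps relative to the array's highest value (-0.029), for Cel in adipose tissue without low replicate 4 (0.029), and for the correlations of Cel and Clps after subtracting group means (-0.17) and, after quantile normalization, of Pnliprp1 and Pnliprp2 (-0.29) and Pnliprp2 and Pla2g1b (-0.13). The cause was not tested. Over the arrays left out, the pancreas difference of Pla2g1b was -0.078 to 0.0027, that of Cel 0.082 to 0.13 and that of Cel in adipose tissue -0.16 to 0.029. The exact p of Pnliprp2 was 0.0457 without low replicate 5, and that of Clps 0.0328 without high replicate 2. From the mean of the 10 highest probe sets, the distances were 0.96 for Cel, 0.75 for Pnliprp1, 0.79 for Pnliprp2, 0.060 for Clps and 1.88 for Pla2g1b. With limits of 0.5 and 2 log2, traces were 4 and 2 in adipose tissue, 8 and 6 in muscle and 0 and 0 in liver. A filter at a mean log2 of 4 gave no member values outside the pancreas.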
